A study of Mus musculus with 6 samples.

Results

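The 44 genes described here are interferon-stimulated genes and genes of the antigen presentation pathway, read by their symbols in a table of gene counts from *Rnf20* knockout and WT reprogrammable cells. They comprise 4 sensors of foreign nucleic acid, 4 transcription factors, 15 antiviral effectors, 7 genes of the ISG15 system and ADP-ribosylation, 6 interferon-inducible GTPases and 8 genes of antigen presentation. A row was read for 42 of the 44 among 16982 genes. *Ifit3* and *Mx2* had no row, count as 0 by the rule that chose the members, and were not analysed here. Of the 42, 41 passed the filter on low counts, and *Iigp1* did not.

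RNA-seq was performed on 3 WT and 3 *Rnf20* knockout (KO) libraries at day 3 of reprogramming. The cells were mouse embryonic fibroblasts (MEFs) of C57BL/6 background into which retroviruses carried OCT4, SOX2, KLF4 and c-MYC. RNF20 is an E3 ligase for histone H2B, and the methods describe a floxed *Rnf20* allele that a ubiquitously expressed, tamoxifen-inducible Cre deletes when 4-OH tamoxifen is added to the medium. The labels call the cells of both genotypes untreated, and whether WT cultures carried the Cre or received the drug is not stated in the labels. Neither do the labels say whether replicates came from separate embryos or cultures, so p-values measure only the spread between these libraries, which for the WT libraries may be technical.

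Interferons are secreted when cells detect viral or misplaced nucleic acid. They bind cell surface receptors whose JAK kinases activate transcription factors of the STAT family. A complex that holds STAT2 and IRF9 binds the interferon-stimulated response element (ISRE), and the GAS element is another binding site of the family. The induced proteins block viral entry and replication, and others raise the display of peptides: the immunoproteasome cuts proteins, TAP carries the peptides into the endoplasmic reticulum, and MHC class I molecules with beta-2 microglobulin present them to T cells.

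Many of these genes carry the ISRE close to their transcription start, and the windows that hold it are shown for genes on which the comparison turned. The sequences are RefSeq promoters of GRCm38.p6, written in the direction of transcription, and capitals mark the match to GAAANNGAAA or its reverse complement TTTCNNTTTC. *Gbp2*, *Gbp3* and *Gbp7* encode guanylate binding proteins and lie in a cluster on chromosome 3, *Ifit1* encodes a protein that binds viral RNA, *Isg15* a ubiquitin-like modifier, *B2m* beta-2 microglobulin and *Bst2* tetherin, which holds budding virus at the cell surface. The windows lie at chr3:142620594-142620623 (plus strand, *Gbp2*), chr3:142559989-142560024 (plus, *Gbp3*), chr3:142530258-142530317 (plus, *Gbp7*), chr19:34640760-34640838 (plus, *Ifit1*), chr4:156200850-156200921 (minus, *Isg15*), chr2:122147523-122147582 (plus, *B2m*) and chr8:71537562-71537627 (minus, *Bst2*).
Gbp2: actcttttagTTTCACTTTCactgtcttaa
Gbp3: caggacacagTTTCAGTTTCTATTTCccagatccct
Gbp7: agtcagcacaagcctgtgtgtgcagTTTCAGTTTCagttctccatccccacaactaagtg
Ifit1: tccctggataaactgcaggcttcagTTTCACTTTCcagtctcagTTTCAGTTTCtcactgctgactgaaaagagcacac
Isg15: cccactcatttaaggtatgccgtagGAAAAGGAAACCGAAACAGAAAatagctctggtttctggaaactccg
B2m: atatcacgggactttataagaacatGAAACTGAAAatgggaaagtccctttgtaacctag
Bst2: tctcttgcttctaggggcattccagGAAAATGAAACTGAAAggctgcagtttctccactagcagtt

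The first match began 59 bases before the RefSeq start in *Gbp2*, 45 in *Gbp3*, 53 in *Gbp7*, 104 in *Ifit1*, 78 in *Isg15*, 139 in *B2m* and 130 in *Bst2*. The window of *Gbp2* overlaps an annotated exon of that gene, and the others lie outside exons. *Isg15* held 3 overlapping matches, *Gbp3* and *Bst2* held 2 overlapping matches each, and *Ifit1* held 2 that were apart. A RefSeq promoter, from 250 bases before to 50 bases after the start, was found for 35 of the 44 genes. The ISRE letters were present in 15 of the 35 (42.9%), against 3.99% of 27025 genes with a promoter and 3.44% of all 32851 promoters of this length. The GAS letters, TTCNNNGAA, which read the same on both strands, were present in 8 (22.9%), against 9.55% of genes and 8.30% of promoters. A match is a description of the letters and not evidence of binding.

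The libraries held between 20545442 and 21746898 counts. Values are CPM, counts relative to the library total, scaled by edgeR's TMM factors, on which 3 counts correspond to 0.142 to 0.143 CPM. *Rnf20* itself held 107, 107 and 106 CPM in WT replicates 1 to 3 and 18.7, 18.5 and 16.4 in KO replicates 1 to 3 (log2 fold change -2.57, SE (standard error) 0.0812, adjusted p = 0.000163, edgeR quasi-likelihood test). KO replicate 3 stood apart from the other KO libraries: a chi-square statistic of the counts was 92.4 and 101 per gene between it and KO replicates 1 and 2, but 8.57 between those and 6.04 to 8.92 among WT libraries. The Y-linked *Ddx3y* had 0 counts in KO replicates 1 and 3 and was expressed in the other 4 libraries. Because KO replicate 3 stood apart, calls and counts are also given without it, a fit that still joins KO replicate 1, without *Ddx3y*, and KO replicate 2, with it. Absence of *Ddx3y* was seen only among KO libraries. Whether sex or another property of single cultures contributes cannot be fully told apart from genotype in these libraries, and was not tested.

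Interferon-stimulated and antigen presentation genes were upregulated more often than downregulated in KO cells. Of the 41 tested, 11 were higher at an adjusted p under 0.05 (*Gbp2*, *Gbp3*, *Irgm1*, *Ifit1*, *Ifi44*, *Xaf1*, *Usp18*, *Zbp1*, *Tap1*, *B2m* and *H2-D1*) and 2 were lower (*Ifitm1* and *Parp12*). Among all 13386 genes tested, 16.4% were higher and 16.6% lower by the same edgeR quasi-likelihood test, so the higher calls make up 26.8% of the genes against that 16.4%, and the lower calls 4.88% against 16.6%. *Ifi44* and *Usp18* passed the filter on low counts through their KO libraries alone, in which they were high, and without them 9 of 39 were higher (23.1%). The log2 fold change was positive for 34 genes and negative for 7. Its median was 0.65, against -0.0003 over all genes tested. The 3 KO libraries all lay above the 3 WT libraries in 15 of the 41 genes (26.6% of all genes) and all below in 2 (28.2% of all genes). *Ifi44* and *Usp18* are among the 15.

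These counts changed when single libraries were left out. Without WT replicate 1, 2 or 3, the genes called higher were 2, 2 and 1, and without any 1 of them only 1 gene was called lower. Without KO replicate 1 or 2, 11 and 12 genes were higher and 1 was lower, and without KO replicate 3, 13 were higher and 8 lower. The share of all genes called was not computed for the fits without a WT library or without KO replicate 1 or 2. Whether the change in calls there is particular to these genes was not tested. *Rnf20* too had a higher adjusted p with any 1 WT library left out, 0.00552 to 0.00656 (edgeR quasi-likelihood test). *Tap1* and *Parp12* kept their call with each library left out in turn, at adjusted p-values up to 0.0371 and 0.0411 (edgeR quasi-likelihood test). By the thresholds of the study's methods (adjusted p under 0.01, log2 fold change beyond 1 and FPKM over 1), 0 genes were called, against 1.5% of all genes higher and 2.08% lower. At an unadjusted p under 0.05, 14 were higher and 2 lower, against 22.5% and 23% of all genes. The 14 include *Ifi44* and *Usp18*, which were tested only because their KO libraries passed the filter, so these 2 lend no support. Past the study's thresholds, DESeq2 called 7 of the 41 (7.11% of all genes), edgeR's exact test called 7 (7.05% of all genes), and 5 passed without KO replicate 3 (5.66% of all genes).

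**Figure D1:**
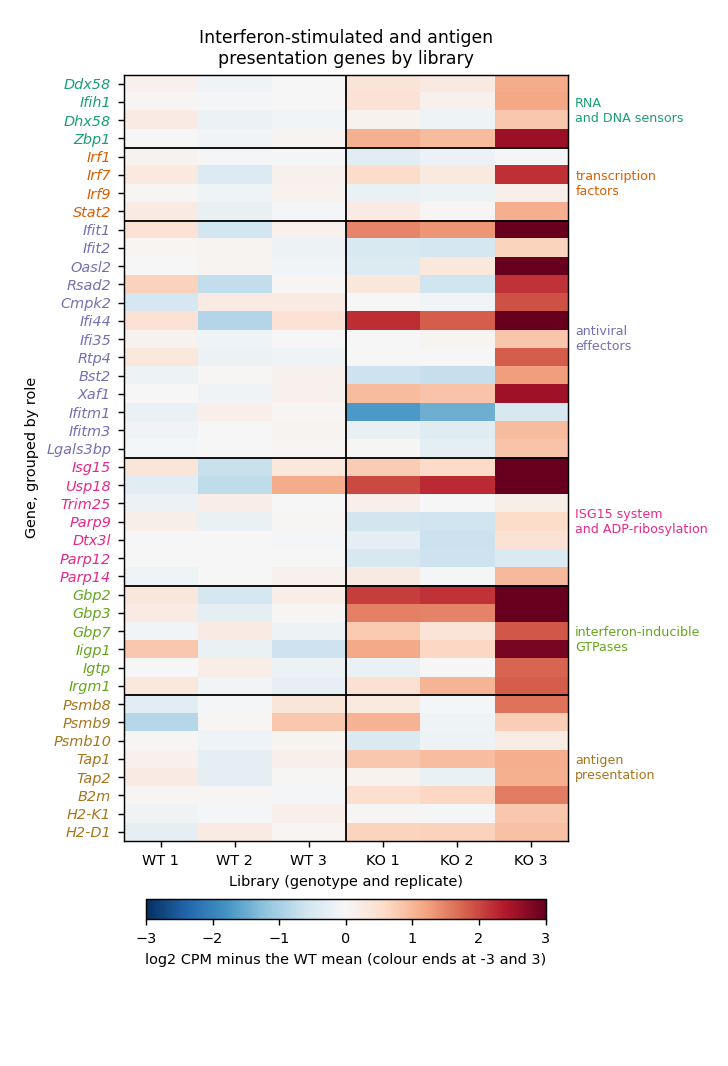
Colour shows log2 CPM of each gene in each library minus the mean of the 3 WT libraries, for the 42 genes with a row, grouped by role. KO replicate 3 is the reddest column and holds the highest value of the 6 libraries in 36 of the 41 tested genes, while *Ifitm1* and *Parp12* are blue in all 3 KO libraries.

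Of the 4 sensors, *Zbp1* rose in KO cells and the other 3 did not pass the test. *Zbp1*, whose product binds left-handed double-stranded nucleic acid and can start necroptosis, lies on the minus strand of chromosome 2 (GRCm38, 173206612 to 173218923). Its WT libraries held 1.76, 1.66 and 1.85 CPM and its KO libraries 3.77, 3.47 and 10.9. The groups did not overlap, and the log2 fold change was 1.78 (SE 0.481, adjusted p = 0.0320, edgeR quasi-likelihood test). It was 1.04 without KO replicate 3 (adjusted p = 0.00549), and the adjusted p was 0.0995 to 0.108 with any 1 WT library left out. *Ddx58*, which encodes the RNA sensor RIG-I, held 21.3, 17.9 and 19.5 CPM in WT and 25.7, 23.4 and 42.5 in KO libraries. *Ifih1*, which encodes the RNA sensor MDA5, held 5.94, 5.55 and 5.79 CPM in WT and 7.78, 6.32 and 13.0 in KO libraries. Neither gene's libraries overlapped between genotypes, but the adjusted p was 0.0732 for *Ddx58* (log2 fold change 0.64) and 0.111 for *Ifih1* (log2 fold change 0.65). Without KO replicate 3, *Ddx58* was called higher, at a log2 fold change of 0.33 (adjusted p = 0.0205), and that of *Ifih1* was 0.29 (adjusted p = 0.169). *Dhx58*, which encodes the related LGP2, held 1.28 to 1.76 CPM in WT and 1.33 to 2.62 CPM in KO libraries, which overlapped.

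None of the 4 transcription factors passed the test. *Stat2* held 23.8, 17.2 and 19.4 CPM in WT libraries and 23.5, 20.4 and 42.5 in KO libraries (log2 fold change 0.52, adjusted p = 0.204, edgeR quasi-likelihood test). *Irf9*, its DNA-binding partner, held 44.4, 39.9 and 46.7 CPM in WT and 38.1, 39.0 and 48.6 in KO libraries (log2 fold change -0.06, adjusted p = 0.724). In both, KO replicate 3 was the highest library and the groups overlapped, and without it the log2 fold changes were 0.13 and -0.18. *Irf7*, which amplifies interferon transcription, held 0.997 to 1.66 CPM in WT and 2.01, 1.66 and 6.48 CPM in KO libraries, and its adjusted p was 0.124 (log2 fold change 1.29), or 0.327 without KO replicate 3 (log2 fold change 0.41). *Irf1*, a factor induced strongly by interferon gamma, held 26.1, 23.5 and 23.3 CPM in WT and 19.2, 21.4 and 23.7 in KO libraries. Its log2 fold change was -0.18 (adjusted p = 0.240), and without KO replicate 3 it was called lower, at -0.25 (adjusted p = 0.0477). Exons of *Irf9* overlap those of *Rnf31* on the same strand and exons of *Irf7* those of *Phrf1* on the opposite strand, and the strand setting of the counting is not given in the sources used here.

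Among 13 tested antiviral effectors, *Ifit1*, *Ifi44* and *Xaf1* rose and *Ifitm1* fell. *Ifit1* (chromosome 19, 34640871 to 34650009, plus strand) held 0.951, 0.427 and 0.759 CPM in WT libraries and 2.05, 1.85 and 18.5 in KO libraries. All KO libraries lay above all WT libraries, with KO replicate 3 far above the rest. The log2 fold change was 3.38 (SE 1.03, adjusted p = 0.0454, edgeR quasi-likelihood test) and 1.45 without KO replicate 3 (adjusted p = 0.00986). *Ifi44* (chromosome 3, 151730922 to 151749960, minus strand), an interferon-induced gene, totalled 6 counts over the WT libraries and 185 over the KO libraries. Its CPM was 0.143, 0 and 0.142 in WT, at or under the level of 3 counts, and 0.716, 0.522 and 7.57 in KO libraries. The fitted log2 fold change of 4.87 (SE 1.42, adjusted p = 0.0399) depends on the prior count at this depth and on a gene tested only because its KO libraries passed the filter, and it was 2.63 without KO replicate 3 (adjusted p = 0.0128). *Xaf1*, which encodes an antagonist of the apoptosis inhibitor XIAP, held 1.47, 1.38 and 1.66 CPM in WT and 2.96, 2.80 and 9.15 in KO libraries. It rose by a log2 fold change of 1.72 (SE 0.509, adjusted p = 0.0413), and by 0.94 without KO replicate 3 (adjusted p = 0.0155). With any 1 WT library left out, the adjusted p was 0.114 to 0.148 for *Ifit1*, 0.110 to 0.125 for *Ifi44* and 0.116 to 0.131 for *Xaf1*.

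*Ifitm1* and *Ifitm3* encode membrane proteins that hinder viral fusion, and they moved differently. *Ifitm1* (chromosome 7, 140967221 to 140969825, plus strand) held 96.6, 122 and 114 CPM in WT libraries and 33.4, 39.6 and 78.9 in KO libraries. Every KO library lay below every WT library, and the nearest to WT was KO replicate 3. The log2 fold change was -1.13 (SE 0.316, adjusted p = 0.0354, edgeR quasi-likelihood test), and -1.60 without KO replicate 3 (adjusted p = 2.97e-06). The adjusted p was above 0.05 without each of the other 5 libraries, at 0.0771 to 0.111 for WT libraries, 0.0690 for KO replicate 1 and 0.0923 for KO replicate 2. *Ifitm3*, which lies near it on the chromosome, held 277, 300.2 and 312 CPM in WT and 253, 229 and 574 in KO libraries. KO replicates 1 and 2 lay below WT and KO replicate 3 above, with a log2 fold change of 0.25 (adjusted p = 0.596) that was -0.30 without KO replicate 3 (adjusted p = 0.00453).

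*Bst2* and *Ifit2* showed the same split between KO libraries as *Ifitm3*. *Bst2* held 26.5, 30.1 and 32.1 CPM in WT libraries and 19.2, 18.1 and 70.7 in KO libraries. *Ifit2*, which lies in the same cluster as *Ifit1*, held 19.8, 20.3 and 17.2 CPM in WT and 13.9, 13.2 and 30.4 in KO libraries. In both, KO replicates 1 and 2 lay below all WT libraries and KO replicate 3 above them. The log2 fold changes were 0.28 for *Bst2* and 0.01 for *Ifit2* (adjusted p = 0.697 and 0.984, edgeR quasi-likelihood test), and without KO replicate 3 they were -0.66 (adjusted p = 0.000455) and -0.49 (adjusted p = 0.00379). *Oasl2*, of the oligoadenylate synthetase family, held 0.617 to 0.712 CPM in WT and 0.477, 0.855 and 8.001 in KO libraries, and its log2 fold change of 2.22 (adjusted p = 0.145) was 0.005 without KO replicate 3. *Rsad2* (viperin), *Cmpk2*, *Rtp4*, *Ifi35* and *Lgals3bp* did not pass the test, with log2 fold changes from 0.28 for *Lgals3bp* to 1.06 for *Rsad2*, and KO replicate 3 was the highest library in each. *Ifit* and *Ifitm* genes have close relatives whose reads the counting could divide, so the split between them is uncertain.

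In the ISG15 system, *Usp18* rose. Its product removes ISG15 from proteins and limits signalling from the interferon receptor, and the gene lies on chromosome 6 (121245906 to 121270917, plus strand). *Usp18* totalled 12 counts over the WT libraries and 213 over the KO libraries, which is 0.0951, 0.0475 and 0.427 CPM against 0.859, 1.05 and 8.24. The libraries did not overlap, 2 WT libraries lay under 3 counts, and the gene was tested only because its KO libraries passed the filter. The fitted log2 fold change was 4.11 (SE 1.203, adjusted p = 0.0400, edgeR quasi-likelihood test), 2.29 without KO replicate 3 (adjusted p = 0.0144), and the adjusted p was 0.0799 to 0.131 with any 1 WT library left out. *Isg15* itself held 2.04, 0.949 and 1.99 CPM in WT and 2.72, 2.37 and 20.4 in KO libraries. Its KO libraries lay above WT, but the adjusted p was 0.0881 (log2 fold change 2.35), and 0.171 without KO replicate 3 (log2 fold change 0.62). *Trim25*, which encodes a ubiquitin ligase that acts with RIG-I, held 89.4 to 117 CPM in WT and 103 to 114 CPM in KO libraries, which overlapped (log2 fold change 0.11).

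*Parp12* fell, while the other ADP-ribosylation genes did not pass the test. *Parp12* (chromosome 6, 39086410 to 39118349, minus strand), which encodes a mono-ADP-ribosyltransferase, held 37.5, 37.3 and 36.5 CPM in WT libraries and 26.7, 24.3 and 27.3 in KO libraries. The 3 KO libraries lay close together below the WT libraries, KO replicate 3 included. The log2 fold change was -0.51 (SE 0.0798, adjusted p = 0.00708, edgeR quasi-likelihood test) and ranged from -0.54 to -0.45 with each library left out in turn. *Parp9* and *Dtx3l*, whose products form a complex, held 9.98, 9.64 and 21.6 CPM and 11.4, 8.78 and 18.6 CPM in KO libraries. Their WT libraries held 12.7 to 16.4 CPM and 13.5 to 14.0 CPM, so KO replicates 1 and 2 lay below them and KO replicate 3 above. Without KO replicate 3 both were called lower, at log2 fold changes of -0.58 (adjusted p = 0.00460) and -0.45 (adjusted p = 0.0162). Exons of *Parp9* and *Dtx3l* overlap on opposite strands, and reads from the overlap cannot be told apart unless the counting used strand. *Parp14* held 4.75 to 5.69 CPM in WT and 6.25, 4.94 and 10.3 in KO libraries (adjusted p = 0.242).

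The interferon-inducible GTPases included large rises from levels above the floor. Of 5 tested, *Gbp2*, *Gbp3* and *Irgm1* rose, and the other 2 had positive log2 fold changes. *Gbp2* (chromosome 3, 142620602 to 142638008, plus strand) held 1.47, 0.759 and 1.33 CPM in WT libraries and 5.16, 5.46 and 40.8 in KO libraries. KO replicates 1 and 2 were near each other and above all WT libraries, and KO replicate 3 stood 7.68-fold above their mean. The log2 fold change was 3.84 (SE 0.957, adjusted p = 0.0251, edgeR quasi-likelihood test), and 2.16 without KO replicate 3 (adjusted p = 0.000186). *Gbp3* (chromosome 3, 142560026 to 142573209, plus strand) held 1.28, 0.854 and 1.09 CPM in WT and 3.20, 3.13 and 22.1 in KO libraries. It showed the order of *Gbp2*, with a log2 fold change of 3.13 (SE 0.871, adjusted p = 0.0347), and 1.55 without KO replicate 3 (adjusted p = 0.00160). *Gbp7* held 3.46 to 4.60 CPM in WT and 6.78, 5.13 and 14.3 in KO libraries, which did not overlap. Its adjusted p was 0.0613 (log2 fold change 1.16), and 0.0380 without KO replicate 3 (log2 fold change 0.61). The guanylate binding proteins have close relatives whose reads the counting could divide.

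*Irgm1* (chromosome 11, 48861968 to 48871683, minus strand) encodes an immunity-related GTPase that regulates others of its family. Its WT libraries held 14.0, 10.5 and 9.40 CPM and its KO libraries 15.3, 22.6 and 39.5. The lowest KO library lay just above the highest WT library, and the log2 fold change was 1.19 (SE 0.350, adjusted p = 0.0407, edgeR quasi-likelihood test), or 0.75 without KO replicate 3 (adjusted p = 0.00849). Its adjusted p was 0.0650 without KO replicate 2. With any 1 WT library left out, the adjusted p was 0.0814 to 0.0968 for *Gbp2*, 0.0999 to 0.120 for *Gbp3* and 0.0773 to 0.140 for *Irgm1*. *Igtp* held 5.41 to 7.07 CPM in WT and 5.39, 6.27 and 20.9 in KO libraries, so only KO replicate 3 lay above WT (log2 fold change 0.80, adjusted p = 0.265), and its exons overlap those of *Irgm2*. *Iigp1* was under the filter, with 9 counts over the WT libraries and 44 over the KO libraries, most of them in KO replicate 3 (1.48 CPM).

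Of the 8 genes of antigen presentation, *Tap1*, *H2-D1* and *B2m* rose and the 3 immunoproteasome subunits did not pass the test. *Tap1*, which encodes a chain of the peptide transporter, lies in the MHC on chromosome 17 (34187553 to 34197225, plus strand). It held 17.1, 12.6 and 17.3 CPM in WT libraries and 27.4, 29.3 and 33.2 in KO libraries. KO replicate 3 lay close to the other KO libraries, and the log2 fold change was 0.94 (SE 0.150, adjusted p = 0.00739, edgeR quasi-likelihood test), or 0.86 without it (adjusted p = 0.000415). *H2-D1*, a classical MHC class I heavy chain gene (chromosome 17, 35262730 to 35267499, plus strand), held 85.7, 125 and 109 CPM in WT and 167, 170.1 and 194 in KO libraries. This too was a rise of like size in all 3 KO libraries, with a log2 fold change of 0.73 (SE 0.144, adjusted p = 0.0126), or 0.66 without KO replicate 3 (adjusted p = 0.00124). Its adjusted p was 0.0572 without WT replicate 3.

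*B2m* (chromosome 2, 122147686 to 122153083, plus strand), the light chain of every MHC class I molecule, held 149, 149.5 and 141 CPM in WT and 209, 225 and 424 in KO libraries. All KO libraries lay above WT, and the log2 fold change was 0.96 (SE 0.266, adjusted p = 0.0340, edgeR quasi-likelihood test), or 0.57 without KO replicate 3 (adjusted p = 3.29e-05). With any 1 WT library left out, its adjusted p was 0.100 to 0.116. *H2-K1*, the other classical heavy chain gene measured, held 35.8 to 43.0 CPM in WT and 39.5, 37.9 and 68.0 in KO libraries, so KO replicates 1 and 2 lay within the WT range (log2 fold change 0.32, adjusted p = 0.317). *H2-D1* and *H2-K1* are alike in sequence, and the division of reads between them is uncertain. *Tap2*, the partner of *Tap1*, held 9.54 to 13.7 CPM in WT and 12.5, 10.1 and 24.3 in KO libraries (log2 fold change 0.41, adjusted p = 0.376). The immunoproteasome genes *Psmb8*, *Psmb9* and *Psmb10* had log2 fold changes of 0.83, 0.55 and -0.10 (adjusted p = 0.246, 0.494 and 0.695), and their libraries overlapped between genotypes. Exons of *Psmb9* overlap those of *Tap1* on the opposite strand, but *Psmb9* held only 30 counts over the WT libraries and 44 over the KO libraries, against 988 and 1889 for *Tap1*.

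**Figure D2:**
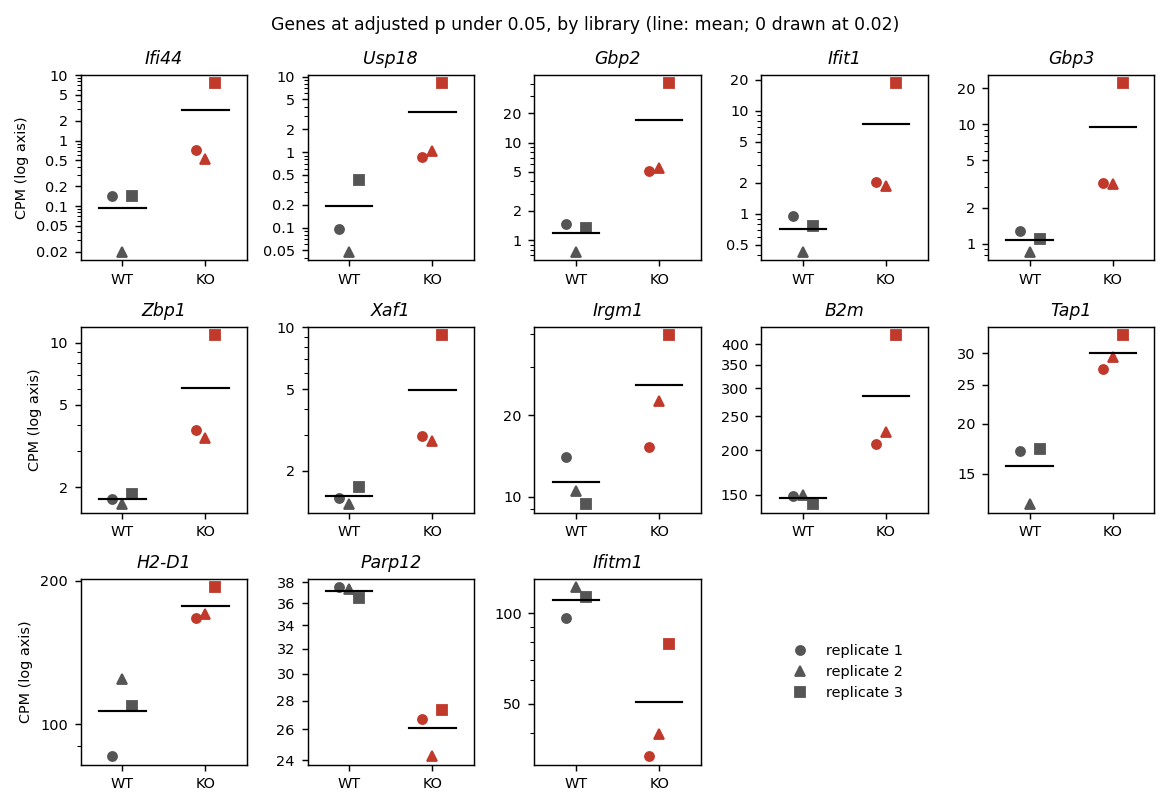
Each panel shows TMM-normalized CPM on a log axis for 1 of the 13 genes called at an adjusted p under 0.05, with 1 point per library (circle, triangle and square for replicates 1, 2 and 3) and a line at the mean of the 3 libraries. In *Gbp2*, *Gbp3*, *Ifit1*, *Ifi44* and *Usp18* the square of KO replicate 3 stands far above the other KO points, in *Tap1*, *H2-D1* and *Parp12* the 3 KO points lie together, and in *Ifitm1* all KO points lie below WT.

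KO replicate 3 held the highest level of most of these genes. It was the highest of the 6 libraries in 36 of the 41 genes (87.8%, against 33.1% of all genes tested) and stood more than 2-fold above the mean of KO replicates 1 and 2 in 23 (56.1%, against 4.74% of all genes). The median difference from the WT mean was 0.235 in KO replicate 1, 0.023 in KO replicate 2 and 1.12 in KO replicate 3 on the log2 CPM scale. Summed over the 42 genes, the level was 1101 to 1185 CPM in WT libraries, 1167 and 1145 CPM in KO replicates 1 and 2, and 2201 CPM in KO replicate 3. All 5 tested GTPases and 11 of 13 antiviral effectors exceeded 2-fold in KO replicate 3 over the other KO libraries, while *Tap1*, *H2-D1*, *Parp12*, *Trim25*, *Psmb9* and *Irf1* stood between 1.05-fold and 1.17-fold.

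Without KO replicate 3, the genes divided into 13 called higher, 8 called lower and 20 not called. Among all 13529 genes tested in that fit, 23.9% were higher and 24.2% lower. The 13 were the 11 called with all libraries and *Gbp7* and *Ddx58*. They include *Ifi44* and *Usp18*, which passed the filter on low counts through their KO libraries alone, so their calls lend no support. The 8 lower genes were *Ifitm1*, *Parp12*, *Bst2*, *Ifit2*, *Ifitm3*, *Parp9*, *Dtx3l* and *Irf1*. The median log2 fold change was then 0.08, against -0.006 over all genes. Both KO replicates 1 and 2 lay above all WT libraries in 15 of the 41 genes (33.4% of all genes), *Ifi44* and *Usp18* among them, and below in 10 (33.7% of all genes). By role, 4 of 5 GTPases, 3 of 8 antigen presentation genes and 2 of 4 sensors were then called higher and none of those groups held a lower call. The antiviral effectors held 3 higher, *Ifi44* among them, and 4 lower.

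**Figure D3:**
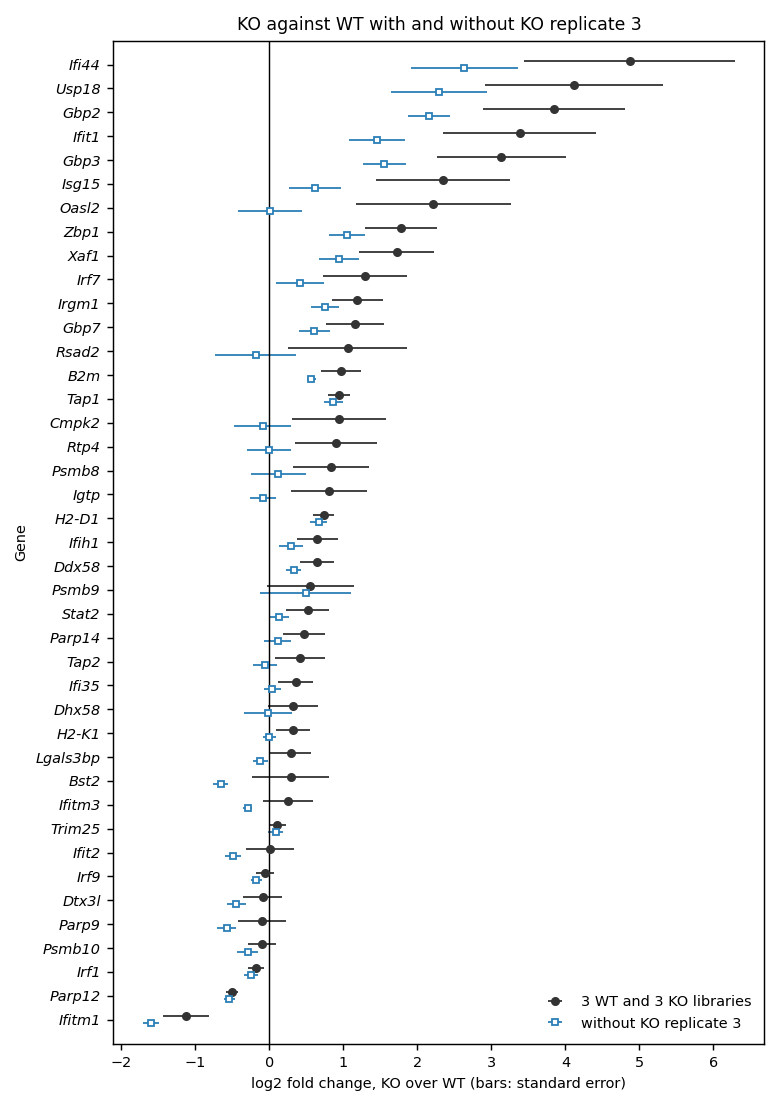
Points give the log2 fold change of KO over WT for the 41 tested genes with the standard error as bars, in circles from all 6 libraries and in open squares without KO replicate 3. The squares lie left of the circles for all 41 genes, fall left of 0 for *Bst2*, *Ifit2* and *Ifitm3* among others, and stay right of 0 for *Gbp2*, *Gbp3*, *Tap1*, *B2m* and *H2-D1*.

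Markers of macrophages also differed in KO replicate 3. In bulk RNA, a change in the number of cells of a type and a change in RNA per cell cannot be told apart. The 18 macrophage markers summed to 98.6 to 182 CPM in WT libraries, 147 and 96.9 CPM in KO replicates 1 and 2, and 349 CPM in KO replicate 3. *Adgre1* (F4/80) held 1.76 to 4.27 CPM in WT and 4.06, 2.56 and 31.9 in KO libraries, *Lyz2* held 25.5 to 58.0 CPM in WT and 49.1, 26.4 and 159 in KO libraries, and *Cd14* held 3.95 to 6.17 CPM in WT and 6.11, 5.98 and 25.4 in KO libraries. Of 17 markers tested, 10 stood more than 2-fold above KO replicates 1 and 2 in KO replicate 3, and 0 were called with all libraries by edgeR's quasi-likelihood test. Of all 18, KO replicate 3 lay above the range of the WT libraries in 12, among them *Csf1r* (12.2 CPM, WT at most 7.83), *Ptprc* and *Spi1*. It lay inside that range in 4 (*Cd68*, *C1qb*, *C1qc* and *Ctss*) and below it in 2 (*C1qa* and *Laptm5*). The part of macrophages in the values of KO replicate 3 was not tested.

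Other cell types were measured by 3 further lists. Fibroblast markers summed to 30980 to 33680 CPM in WT libraries, 32540 and 40660 CPM in KO replicates 1 and 2 and 22030 CPM in KO replicate 3, and of the 10 markers *Thy1* and *Pdgfra* were lower (log2 fold changes -1.11 and -1.22, adjusted p = 0.00251 and 0.0185, edgeR quasi-likelihood test) and the rest were not called. The adjusted p of *Pdgfra* was 0.0590 to 0.0677 with any 1 WT library left out. Endothelial markers summed to 48.6 to 59.0 CPM in WT libraries and 67.3, 54.0 and 32.3 CPM in KO libraries, most of it from *Tek*. Lymphocyte and dendritic cell markers summed to 6.30 to 7.88 CPM in every library, and 1 of 10 passed the filter. That marker, *Zbtb46*, held 5.33 to 7.69 CPM, so the sum says little of the others. Among those, *Flt3* had 0 counts in the WT libraries and 2, 1 and 23 in KO replicates 1 to 3, and the rest held at most 6 counts in any library. Fibroblast markers were thus abundant in all 6 libraries.

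**Figure D4:**
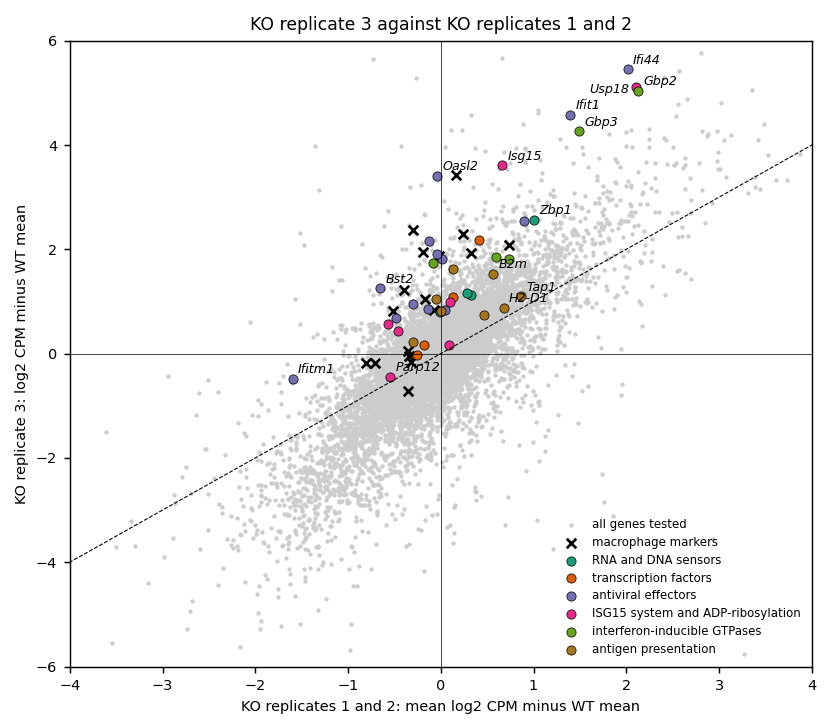
Each coloured point is 1 of the 41 tested genes, placed by the mean difference of KO replicates 1 and 2 from the WT mean (horizontal axis) and the difference of KO replicate 3 from the WT mean (vertical axis), both in log2 CPM; grey points are all 13386 genes tested, crosses are macrophage markers and the dashed line marks equal differences. Most coloured points and many crosses lie above the dashed line, while *Tap1*, *H2-D1* and *Parp12* lie near it.

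The responses of genes with and without the ISRE letters are set side by side. Of the tested genes with a RefSeq promoter, 14 held the ISRE letters. With all libraries, 5 of them were higher (*Gbp2*, *Gbp3*, *Ifit1*, *Irgm1* and *B2m*) and 0 lower by edgeR's quasi-likelihood test, beside 16.4% and 16.6% of all genes. Their median log2 fold change was 1.01, with a range of 0.25 to 3.84. The other 20 held 4 higher and 2 lower genes, with a median of 0.34 and a range of -1.13 to 4.87. *Ifi44* and *Tap1* were among those 20. Without KO replicate 3, 4 genes with the letters had log2 fold changes below 0: *Bst2* (-0.66), *Ifitm3* (-0.30), *Rsad2* (-0.19) and *Igtp* (-0.09). Of these, *Bst2* and *Ifitm3* were called lower. Genes without the letters, such as *Ifit2* and *Irf1*, were below 0 in that fit too. The medians of these groups were not computed without KO replicate 3.

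Levels were compared between genes by the deposited FPKM, which are per length and were read for 36 of the genes. In WT cells *Ifitm3* was highest, at 731 ± 66.2 FPKM (mean ± SD, n = 3), followed by *Ifitm1* at 357 ± 58.0 and *B2m* at 269.8 ± 4.62. *H2-D1* (57.9 ± 10.9 FPKM) and *Bst2* (47.5 ± 6.64 FPKM) followed and overlapped between libraries, then *H2-K1* (24.8 ± 3.54 FPKM). The order *Ifitm3*, *Ifitm1*, *B2m*, *H2-D1* held without overlap of neighbouring libraries, whereas most neighbours further down overlapped. Among the lowest WT levels were those of *Gbp2* (0.495 ± 0.156 FPKM), *Gbp3* (0.428 ± 0.0826) and *Ifit1* (0.298 ± 0.107).

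In KO cells *Ifitm3* led at 865 ± 481 FPKM, followed by *B2m* at 506 ± 191 FPKM and *Ifitm1* at 163 ± 82.2 FPKM. *Gbp2* moved from rank 33 to rank 20, at 6.89 ± 8.15 FPKM, and *Isg15* from rank 21 to rank 9, at 16.7 ± 20.2 FPKM. The SD of both exceeded the mean, since KO replicate 3 held most of the signal. These ranks are a description of mean levels and were not tested.

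Receptors, kinases, transcription factors and inhibitors of interferon signalling were read together as a list of their own. Of 14 tested genes, 3 rose and 0 fell, against 16.4% and 16.6% of all genes. They were *Ptpn11*, which encodes the phosphatase SHP2 and was listed as an inhibitor, *Ifnar1*, a subunit of the type I receptor, and *Jak1*, the kinase shared by the receptors. *Ptpn11* held 215, 220.0 and 219.8 CPM in WT libraries and 283, 305 and 344 in KO libraries (log2 fold change 0.51, adjusted p = 0.00840, edgeR quasi-likelihood test). *Ifnar1* held 101, 99.5 and 98.2 CPM in WT and 119.5, 124 and 149 in KO libraries (log2 fold change 0.39, adjusted p = 0.0247), and *Jak1* held 229.9 to 240.1 CPM in WT and 279.8 to 284 CPM in KO libraries (log2 fold change 0.27, adjusted p = 0.0193). In all of these the KO libraries lay above WT, including KO replicates 1 and 2. With any 1 WT library left out, the adjusted p was 0.0819 to 0.0946 for *Ifnar1* and 0.0692 to 0.0877 for *Jak1*, and without KO replicate 2 it was 0.0585 for *Jak1*. *Ifngr2*, a subunit of the interferon gamma receptor, held 43.5 to 47.4 CPM in WT and 55.6, 61.3 and 117 in KO libraries, and *Jak2* held 58.1 to 71.5 CPM in WT and 74.6 to 96.9 CPM in KO libraries. Their groups did not overlap, but the adjusted p was 0.0659 for *Ifngr2* and 0.0723 for *Jak2*. Both were called higher without KO replicate 3 (adjusted p = 0.00156 and 0.0413, edgeR quasi-likelihood test). *Tyk2* and *Ifngr1* had log2 fold changes of -0.14 (adjusted p = 0.168) and -0.03 (adjusted p = 0.886). Without KO replicate 3, 8 of the 14 were higher and 0 lower, against 23.9% and 24.2% of all genes. These 8 include inhibitors as well as receptors and kinases, so the counts give no single direction of signalling. The median log2 fold change of the list was 0.21 both with and without that library.

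Of 15 tested genes upstream of interferon itself, 6 were lower and 1 was higher, against 16.6% and 16.4% of all genes. Without KO replicate 3 there were 8 lower and 3 higher, against 24.2% and 23.9% of all genes in that fit. The list joins sensors, adaptors, kinases and transcription factors with nucleases, and lower calls fell on both kinds. Its counts therefore give no single direction of interferon induction. *Zcchc3*, a cofactor of nucleic acid sensing, held 23.3 to 26.3 CPM in WT libraries and 15.3, 12.8 and 11.0 in KO libraries (log2 fold change -0.95, adjusted p = 0.00601, edgeR quasi-likelihood test). *Rnaseh2c* and *Rnaseh2b*, listed as nucleases and subunits of an enzyme that removes ribonucleotides from DNA, fell by 0.90 and 0.63 on the log2 scale (adjusted p = 0.00472 and 0.00994). *Mb21d1*, which encodes the DNA sensor cGAS, held 5.80, 7.02 and 5.84 CPM in WT and 4.20, 3.70 and 2.95 in KO libraries (log2 fold change -0.78, adjusted p = 0.0269), and *Irf3*, a factor that switches on interferon beta, fell by 0.32 (adjusted p = 0.0289). All these genes lay lower in all 3 KO libraries. *Tmem173* (STING) and *Mavs*, the adaptors of DNA and RNA sensing, had log2 fold changes of -0.29 and -0.23 (adjusted p = 0.0578 and 0.0579). Both were called lower without KO replicate 3 (adjusted p = 0.0125 and 0.0369, edgeR quasi-likelihood test). *Tlr3*, a sensor of double-stranded RNA, rose, with 2.38, 1.23 and 0.949 CPM in WT and 4.11, 4.80 and 7.43 in KO libraries (log2 fold change 1.84, adjusted p = 0.0177). The calls of *Mb21d1* and *Irf3* were lost with any 1 WT library left out, at adjusted p-values of 0.0712 to 0.101 and 0.0513 to 0.106, and also without KO replicate 2 (0.0622 and 0.0842) and, for *Irf3*, without KO replicate 1 (0.0745). Those of *Tlr3* and *Rnaseh2b* were lost without WT replicate 2 or 3, at up to 0.0765 and 0.0533. *Ifnar2* and *Ifnb1*, which encodes interferon beta, had no row and were not analysed here.

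A broader list of other interferon-stimulated genes gave 12 higher and 3 lower of 50 tested, beside the 16.4% and 16.6% of all genes. It gave 13 higher and 6 lower without KO replicate 3, beside 23.9% and 24.2% of all genes in that fit. *Cd274*, which encodes PD-L1, held 0.380, 0.712 and 0.475 CPM in WT libraries and 2.43, 1.99 and 4.57 in KO libraries (log2 fold change 2.51, adjusted p = 0.00921, edgeR quasi-likelihood test). *Ifi203*, of the family that binds DNA, held 1.57, 3.66 and 1.57 CPM in WT and 10.8, 4.84 and 18.4 in KO libraries (log2 fold change 2.33, adjusted p = 0.0229). *Apol9b* and *Apol9a* rose too, at log2 fold changes of 2.87 and 1.74 (adjusted p = 0.0164 and 0.0381), from levels under 1 CPM, and *Apol9b* was tested only because its KO libraries passed the filter. *Slfn9*, of the Schlafen family, held 25.3, 26.6 and 27.0 CPM in WT and 9.12, 7.84 and 7.48 in KO libraries, and it fell in every fit that left out 1 library (log2 fold change -1.69, adjusted p = 0.00161). *Ly6e* and *Mov10* fell by 0.65 and 0.46 on the log2 scale (adjusted p = 0.0265 and 0.0173). The adjusted p was 0.0520 for *Cd274* without WT replicate 3, up to 0.0941 for *Ifi203* without WT replicate 1 or 3, and 0.0549 to 0.0707 for *Apol9b*, 0.0659 to 0.122 for *Apol9a* and 0.0527 to 0.0739 for *Mov10* with any 1 WT library left out. It was 0.0524 for *Apol9a* without KO replicate 2 and 0.0630 to 0.0748 for *Ly6e* without WT replicate 3, KO replicate 1 or KO replicate 2.

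Other genes of the MHC class I pathway gave 4 higher and 0 lower of 17 tested, beside the 16.4% and 16.6% of all genes. They gave 5 higher and 2 lower without KO replicate 3, beside 23.9% and 24.2% of all genes in that fit. *Canx* and *Pdia3*, chaperones that fold the heavy chain and serve many other glycoproteins, rose evenly in the 3 KO libraries. *Canx* held 656 to 665 CPM in WT and 974 to 1058 CPM in KO libraries (log2 fold change 0.63, adjusted p = 0.00349, edgeR quasi-likelihood test). *Pdia3* held 756 to 783 CPM in WT and 1103 to 1172 CPM in KO libraries (log2 fold change 0.58, adjusted p = 0.00390). *Calr* rose by a log2 fold change of 0.28 (adjusted p = 0.0317), and *Nlrc5*, the transactivator of MHC class I genes, held 1.05, 0.522 and 0.332 CPM in WT and 1.53, 1.80 and 2.81 in KO libraries (log2 fold change 1.68, adjusted p = 0.0365). *Tapbp* (tapasin), which links TAP to MHC class I, held 102 to 109 CPM in WT and 118, 106 and 174.5 in KO libraries (adjusted p = 0.196). The adjusted p of *Calr* was 0.0754 to 0.119 without any 1 library other than KO replicate 3, and that of *Nlrc5* was up to 0.126 without WT replicate 2 or 3 and 0.0650 without KO replicate 2. Each gene called above with all libraries in the lists beyond the 44 was also called without KO replicate 3. The adjusted p-values there were up to 0.0354 (edgeR quasi-likelihood test).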

How the data were processed

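Gene expression was measured by RNA-seq on day 3 of reprogramming in 3 WT and 3 *Rnf20* knockout libraries. The authors selected poly(A) RNA, prepared stranded paired-end libraries and aligned the reads to GRCm38/mm10 with HISAT2 2.1.0, and deposited whole-number counts per gene; the counting program and its strand setting are not given in the sources used here. FPKM (fragments scaled by transcript length and library size) were deposited by the authors, who computed them with Cufflinks 2.1.1, for 12626 genes. Another 6 columns of per-library counts in that table, and its columns of the authors' own fold changes and false discovery rates, were not used.

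Genotype and replicate number came from the sample titles. Counts were scaled by TMM, genes with low counts were removed with filterByExpr, and KO was compared with WT over all genes by the quasi-likelihood test of edgeR 4.0.16 (R 4.3.3) with Benjamini-Hochberg adjustment over all genes tested; all adjusted p-values are of this test and the threshold was 0.05. The procedure was tested on simulated data. The simulated counts held no single library that stood apart, as KO replicate 3 does here, so that case was not covered. Differences of single libraries from the WT mean used log2 CPM with a pseudocount of 2 counts. Gene positions and exon overlaps came from GENCODE M21 on GRCm38, and promoters from RefSeq on GRCm38.p6; the ISRE and GAS letters were searched on both strands. The depth of 20545442 to 21746898 counts per library bounds the precision for genes with few counts, and 3 counts were taken as the floor. Alternatives were RLE size factors, library size alone, no filter on low counts, DESeq2 1.42.0, edgeR's exact test, the replicate number as a block, and each library left out in turn.

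The members and the other gene lists were chosen with earlier results of these data known. All members are described. From the other lists, up to 4 genes per direction with the largest called log2 fold changes were named, with a set of receptors, kinases and adaptors chosen for their role, of which 1 gene is not reported here. The macrophage, endothelial, lymphocyte and dendritic cell markers given by name were named after their values were seen.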

Additional observations from a re-analysis of the deposited data

How the results depend on the processing

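The count of higher genes (11) was 6 with the replicate block and 11 to 14 with the other normalizations, filters and tests, and the count of lower genes (2) stayed at 2 in all of these. With each library left out in turn, 1 to 13 genes were higher, 1 to 8 were lower and 0 to 5 passed the study's thresholds. Past those thresholds DESeq2 called 7 genes and edgeR's exact test 7, against 0. The median log2 fold change was 0.08 to 0.85 with a library left out, lowest without KO replicate 3, and 0.59 to 0.68 otherwise. DESeq2 and the exact test also called *Ddx58*, *Isg15*, *Gbp7* and *Ifngr2*, and DESeq2 *Jak2*. *Mavs* and *Tmem173* were called lower with library size only. *Calr* lost its call with library size only and with the exact test, *Jak1* with the exact test, and *Cd74* with library size only and with no filter. The causes were not tested.

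The labels do not say whether libraries with the same replicate number belong together. Deviations of same-numbered libraries from their group means correlated at -0.066, 0.037 and 0.011. KO replicate 3 stood apart and shifts the KO mean, so these values cannot decide whether the libraries were paired. Under the replicate block *Ifit1*, *Xaf1*, *Gbp3*, *Irgm1* and *B2m* lost their call, and no other call among the 44 genes changed. Of the genes named from other lists, *Ifnar1*, *Jak1*, *Tlr3*, *Mb21d1*, *Irf3*, *Ifi203*, *Apol9a*, *Ly6e*, *Mov10*, *Nlrc5* and *Calr* lost theirs.

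Direction changed for genes that did not pass the test. For *Ifit2* the log2 fold change was -0.052 with library size only, -0.003 with no filter on low counts and -0.098 under the replicate block, and for *Bst2* it was -0.017 under the block. Over the 6 fits that each omit 1 library, the range of the log2 fold change was -0.018 to 0.514 for *Dhx58*, -0.177 to 0.01 for *Irf9*, -0.488 to 0.222 for *Ifit2*, -0.185 to 1.528 for *Rsad2*, -0.091 to 1.277 for *Cmpk2* and -0.006 to 1.201 for *Rtp4*. It ranged from -0.662 to 0.61 for *Bst2*, -0.297 to 0.486 for *Ifitm3*, -0.124 to 0.513 for *Lgals3bp*, -0.581 to 0.108 for *Parp9*, -0.448 to 0.129 for *Dtx3l* and -0.088 to 1.134 for *Igtp*. It ranged from -0.296 to 0.047 for *Psmb10*, -0.061 to 0.648 for *Tap2*, -0.002 to 0.474 for *H2-K1* and -0.198 to 0.065 for *Ifngr1*. Genes near the floor, *Ifi44* and *Usp18* in WT, are limited by depth.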

Other observations

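MHC class II genes, which present peptides from outside the cell and are normally restricted to professional antigen presenting cells, were low in all libraries, at 6.83 CPM or less. Of 8 listed genes, 7 had a row and 3 were tested. *Cd74*, the invariant chain, held 0.285, 0.142 and 0.902 CPM in WT libraries and 1.15, 1.76 and 2.95 in KO libraries, which did not overlap (log2 fold change 2.12, SE 0.669, adjusted p = 0.0496, edgeR quasi-likelihood test). Its adjusted p was 0.0505 without KO replicate 1, 0.0854 without KO replicate 2, 0.0342 without KO replicate 3 and up to 0.153 with a WT library left out. *Ciita*, the transactivator of these genes, was at or under 3 counts in every library, and *H2-Aa* was at 0 in all WT libraries and at most 0.143 CPM in KO libraries. *H2-DMa* and *H2-DMb1*, which load peptide, had log2 fold changes of 0.49 and 0.82 (adjusted p = 0.259 and 0.178). Without KO replicate 3, *H2-DMa* was called higher, at 0.70 (adjusted p = 0.0382, edgeR quasi-likelihood test), and *H2-DMb1* was not called (adjusted p = 0.340).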
